A study of Mus musculus with 9 samples.

Results

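Klf1, Gata1, Gata2, Tal1, Lmo2, Lyl1, Zfpm1, Nfe2, Gfi1b and Epor were followed on every array: 9 genes of transcriptional regulators of red cell and blood stem cell development and the gene of the erythropoietin receptor. All probe sets that the platform annotation assigns to these symbols were taken, which gave 12 probe sets for the 10 genes, out of 45037 probe sets and 18193 genes. Gata2 and Zfpm1 had 2 probe sets each, and the other genes had 1. Very small embryonic-like cells (VSEL) carried Sca-1 and lacked lineage markers and CD45, haematopoietic stem cells (HSC) carried Sca-1 and CD45 and lacked lineage markers, and both were sorted from bone marrow of C57BL/6 mice aged 4 weeks. The third group was ESC-D3, a single embryonic stem cell line from strain 129S2/SvPas, kept on 0.1% gelatin with LIF at 10 ng/ml (called ESC). Every library was made from 20 cells by PCR amplification and read on an expression array, with 3 arrays a group. Whether the 3 libraries of a cell type stem from different animals or cultures is not in the labels, so the p-values speak of the spread among libraries, part of which may be technical.

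GATA1 and GATA2 bind GATA motifs in DNA, TAL1 and LYL1 are related helix-loop-helix proteins that bind E-boxes, and LMO2 is an adaptor that joins the helix-loop-helix and GATA proteins in 1 complex. GATA2 acts mainly in stem and progenitor cells and in mast cells, while GATA1 takes over at GATA2's sites during red cell and megakaryocyte maturation with the help of its cofactor FOG1, the product of Zfpm1. KLF1 binds CACC boxes of globin and other red cell genes, NFE2 is the larger subunit of a dimer with small MAF proteins, and GFI1B is a repressor of red cell and megakaryocyte precursors. Erythropoietin signals through its receptor and JAK2 to keep red cell precursors alive. KLF1, GFI1B, NFE2 and the receptor are thus partners or targets of the GATA and TAL1 complex and not subunits of its core, so the genes are called the regulators below and not a complex.

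VSEL arrays 2 and 3 correlated at r = 0.989 and only 1 probe set differed between them by over 4-fold, against 1565 to 4232 in every other pair within a group. They were averaged and counted as 1 library, VSEL 2+3, which leaves 2 VSEL libraries (VSEL 1 and VSEL 2+3), 3 HSC and 3 ESC libraries. Values are log2 RMA values. No detection calls were used, so the background level of an array was set at the 95th percentile of its 44 olfactory receptor probe sets, which are not expected to be expressed in these cells. It was 6.16 to 6.37 on VSEL arrays, 5.54 to 5.82 on HSC arrays and 5.59 to 5.65 on ESC arrays, so the floor was higher on VSEL arrays. All 8 pluripotency markers lay above it in VSEL and ESC. The CD45 gene Ptprc lay at or below it in both VSEL libraries. In the HSC libraries 4 to 6 of 8 measured stem and progenitor markers lay above background, and so did all 8 T and NK cell markers. Of the stem and progenitor markers, Meis1 and Mecom were at or below background in every VSEL, HSC and ESC library. All 8 neutrophil markers were above background in VSEL and HSC alike, with a log2 summed level of 16.04 in VSEL 1, 17.59 in VSEL 2+3 and 16.76 to 16.95 over the HSC libraries. Of 7 measured B lineage markers 5 were above background in both VSEL libraries and 3 to 5 in HSC, with a summed level of 15.18 and 13.94 in VSEL and 11.01 to 13.35 in HSC. Of 8 red cell markers listed, 4 were measured by a probe set assigned to that gene alone, and probe sets of several genes were not read. Among these 4, Alas2 and Slc4a1 were above background in VSEL and HSC. The Hba-a1 and Epb42 probe sets read were at or below it everywhere. The log2 of the summed red cell markers was 14.85 and 13.73 in the VSEL libraries, 8.95 to 10.72 in HSC and 6.73 to 7.46 in ESC. Fewer cells of a type and less RNA per cell cannot be told apart in these libraries.

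The GATA sites in front of the regulator genes are shown first because GATA1 and GATA2 are known to act on several of these genes. RefSeq (GRCm38.p6) gave 10 promoters for 8 of the genes, and Lmo2 and Nfe2 were not matched. The 250 bases before the start site were searched on both strands for AGATAA and for its variants that begin with T, end with G, or both. A match lay in 4 of the 10 promoters, those of Klf1, Epor, Gfi1b and Tal1, and in 26.5% of 32851 RefSeq promoters cut the same way. Capitals mark the match, which begins 80 bases before the start in Klf1, 54 in Epor, 120 in Gfi1b and 205 in Tal1. The windows are chr8:84901732-84901981 (+ strand) for Klf1, chr9:21963577-21963826 (- strand) for Epor, chr2:28621983-28622232 (- strand) for Gfi1b and chr4:115056176-115056425 (+ strand) for Tal1, which has a second promoter with no match. In Klf1, Epor and Tal1 the site is on the other strand and so appears as its reverse complement. A match describes letters only and says nothing about binding in these cells.
Klf1 promoter: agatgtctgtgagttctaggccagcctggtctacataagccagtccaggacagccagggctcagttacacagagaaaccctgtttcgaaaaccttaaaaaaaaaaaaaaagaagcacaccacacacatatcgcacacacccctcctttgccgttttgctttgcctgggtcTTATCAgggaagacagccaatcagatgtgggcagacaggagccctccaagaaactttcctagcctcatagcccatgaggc
Epor promoter: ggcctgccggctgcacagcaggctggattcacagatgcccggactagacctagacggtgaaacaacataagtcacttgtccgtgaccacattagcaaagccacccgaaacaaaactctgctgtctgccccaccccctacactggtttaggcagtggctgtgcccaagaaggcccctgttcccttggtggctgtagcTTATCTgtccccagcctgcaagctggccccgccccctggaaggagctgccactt
Gfi1b promoter: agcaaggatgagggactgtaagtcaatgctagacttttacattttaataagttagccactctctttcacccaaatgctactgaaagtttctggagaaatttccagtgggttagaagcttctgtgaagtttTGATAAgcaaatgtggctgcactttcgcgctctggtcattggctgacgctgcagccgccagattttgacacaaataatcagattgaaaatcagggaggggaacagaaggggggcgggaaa
Tal1 promoter: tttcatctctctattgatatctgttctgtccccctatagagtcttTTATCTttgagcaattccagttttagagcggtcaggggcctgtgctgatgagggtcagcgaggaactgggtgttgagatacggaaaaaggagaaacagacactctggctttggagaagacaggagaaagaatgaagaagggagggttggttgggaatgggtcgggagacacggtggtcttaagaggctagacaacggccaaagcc

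Klf1, Lmo2, Tal1, Lyl1, Nfe2 and Epor lay higher in both VSEL libraries than in any HSC library. Gata1, Zfpm1 and Gfi1b were far above HSC in VSEL 1 and within or below the HSC range in VSEL 2+3. Gata2 was the 1 gene with a lower mean in VSEL than in HSC. The 6 genes that did not overlap were all above HSC, where 37.7% of all genes lay wholly above and 17.5% wholly below. Lyl1 was the 1 gene of 10 to pass the test (limma with Benjamini-Hochberg over all probe sets, called at an adjusted p of 0.05), where 9.29% of all genes were called higher and 9.04% lower, so the share called was near the background. By probe set 2 of 12 were called, both higher, against 14.2% called in either direction over all probe sets, and 7 of 12 had an unadjusted p under 0.05, against 33.5%. The median log2 difference of the 10 genes was 2.34, beside 0.22 over all genes.

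**Figure D1:**
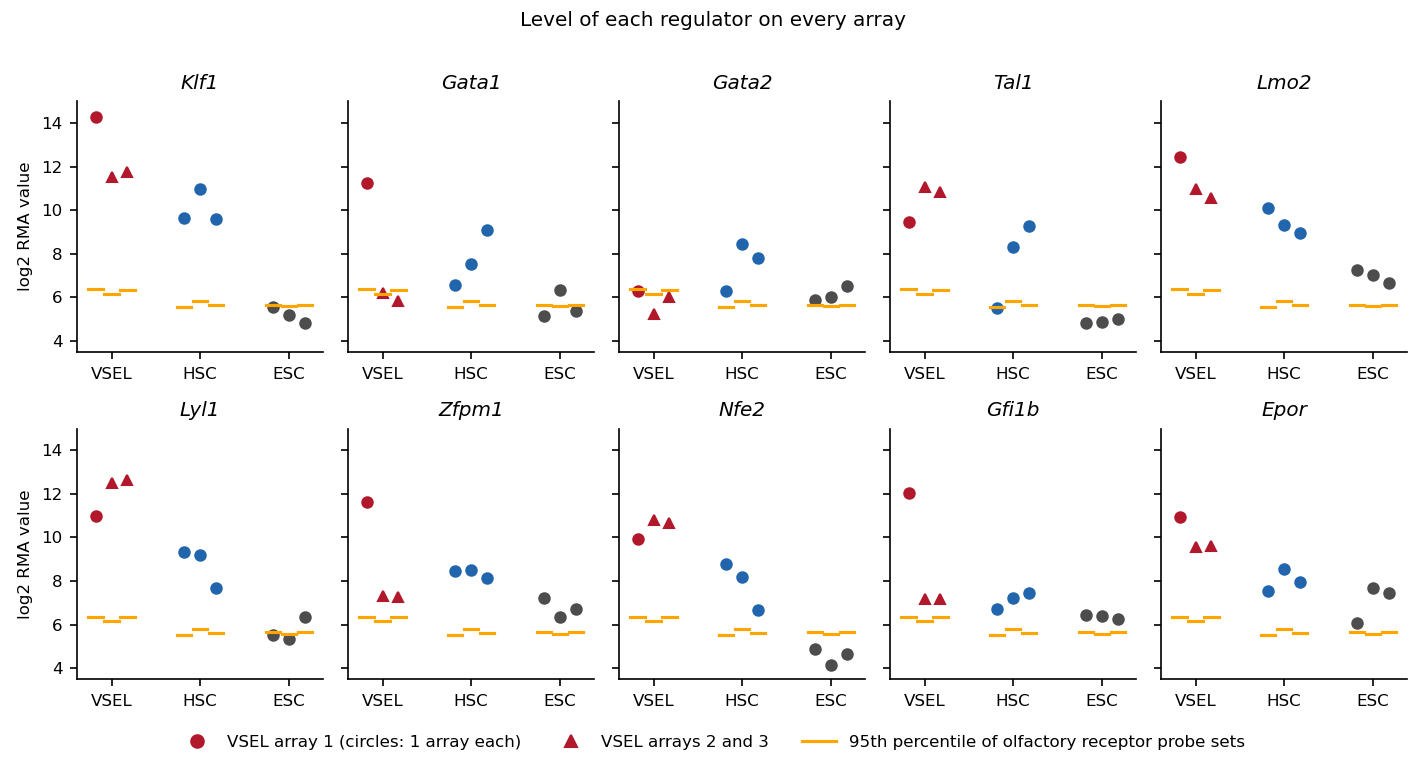
Each panel plots the log2 RMA value of a gene's brightest probe set on all 9 arrays, with VSEL in red, HSC in blue and ESC in grey, triangles for VSEL arrays 2 and 3, and orange bars at the 95th percentile of the olfactory receptor probe sets of that array. Klf1, Lmo2, Tal1, Lyl1, Nfe2 and Epor are highest on the VSEL arrays, Gata2 is highest on 2 HSC arrays, and Gata1, Zfpm1 and Gfi1b are highest by far on VSEL array 1.

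The first member, Klf1, activates globin and other red cell genes. Klf1 stood at 14.30 in VSEL 1 and 11.63 in VSEL 2+3, at 9.62, 10.97 and 9.60 in HSC 1 to 3, and at 5.55, 5.20 and 4.83 in ESC 1 to 3. Both VSEL libraries were above all HSC libraries, VSEL 1 by far, and all ESC libraries lay at or below background. The mean was 12.96 ± 1.89 in VSEL and 10.07 ± 0.78 in HSC (SD), a log2 difference of 2.90 (SE 0.82, adjusted p = 0.064) that did not pass the threshold. Fitted on VSEL 1 without VSEL 2+3, the difference was 4.23 (adjusted p = 0.0165), and with VSEL 2+3 alone it was 1.57 (adjusted p = 0.161). In such fits the lone library is assumed to vary like the other groups.

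Gata1 was at 11.26 in VSEL 1 and 6.03 in VSEL 2+3, and at 6.58, 7.55 and 9.07 in HSC 1 to 3. The ESC libraries read 5.17, 6.35 and 5.38 for it. VSEL 1 was the highest of all 8 libraries and VSEL 2+3 lay below every HSC library and under background, so the 2 VSEL libraries enclosed the HSC range. The VSEL mean was 8.65 ± 3.70 and the HSC mean 7.73 ± 1.26, and the log2 difference of 0.91 (SE 1.53, adjusted p = 0.698) was smaller than its SE. It was 3.53 (adjusted p = 0.0791) with VSEL 1 alone and turned to -1.70 (adjusted p = 0.311) with VSEL 2+3 alone.

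Gata2, the GATA factor of stem and progenitor cells, was read by 2 probe sets. On the brighter set Gata2 had 6.32 in VSEL 1 and 5.64 in VSEL 2+3, 6.32, 8.45 and 7.82 in HSC 1 to 3, and 5.87, 6.01 and 6.55 in ESC 1 to 3. No VSEL library exceeded background, while HSC 2 and HSC 3 stood well above it and HSC 1 equalled VSEL 1. The log2 difference between VSEL and HSC was -1.55 (SE 0.62, adjusted p = 0.141), and without HSC 1 it was -2.15 (adjusted p = 0.034). That was the 1 call among 22 alternatives. These differences are fitted values, and with VSEL held at its background level Gata2 was at least 2.32-fold lower than in HSC. On the dimmer set Gata2 had 5.55 and 5.46 in the VSEL libraries and 6.13, 6.29 and 5.68 in the HSC libraries. VSEL lay wholly below HSC on this set, where 12.8% of all probe sets did so, but the difference of -0.53 missed the threshold (adjusted p = 0.207).

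Tal1, a master regulator of blood stem cells and red cells, had 9.48 in VSEL 1 and 10.97 in VSEL 2+3. Tal1 in HSC 1 to 3 was at 5.52, 8.32 and 9.26, and in ESC 1 to 3 at 4.81, 4.89 and 5.03. HSC 1 lay under background and HSC 3 close below VSEL 1, so the HSC libraries spread over most of the gap between ESC and VSEL. The log2 difference of 2.52 between VSEL and HSC (SE 1.08, adjusted p = 0.159) did not pass.

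Lyl1, which shares much of the early function of Tal1, was at 10.99 in VSEL 1 and 12.57 in VSEL 2+3. Its HSC libraries read 9.35, 9.18 and 7.70 and its ESC libraries 5.51, 5.36 and 6.34. The 3 cell types did not overlap, with VSEL highest and ESC lowest. Lyl1 was 3.04 higher in VSEL than in HSC on the log2 scale (SE 0.68, adjusted p = 0.0362). The call was lost without VSEL 2+3, without any 1 of the HSC or ESC libraries and in 3 other alternatives, with adjusted p-values up to 0.118, and the difference stayed between 2.25 and 3.83 in all 23 alternatives.

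Lmo2, the adaptor of the complex, was at 12.47 in VSEL 1 and 10.78 in VSEL 2+3, at 10.12, 9.31 and 8.98 in HSC 1 to 3, and at 7.25, 7.04 and 6.65 in ESC 1 to 3. Again the 3 cell types kept apart, and every ESC library was above background. Lmo2 differed by 2.15 between VSEL and HSC (SE 0.56), which just missed the threshold (adjusted p = 0.0521), and was called in 8 of 22 alternatives, among them the fit with VSEL 1 alone (3.00, adjusted p = 0.0212).

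Zfpm1, the gene of the GATA1 cofactor FOG1, followed Gata1 in VSEL. On its brighter set Zfpm1 had 11.61 in VSEL 1 and 7.30 in VSEL 2+3, 8.45, 8.50 and 8.13 in HSC 1 to 3, and 7.22, 6.35 and 6.71 in ESC 1 to 3. VSEL 1 was above and VSEL 2+3 below all HSC libraries, and the HSC libraries lay close together (SD 0.20). The log2 difference of 1.09 (SE 1.14, adjusted p = 0.53) did not pass, and it was 3.25 with VSEL 1 alone (adjusted p = 0.00739) and -1.06 with VSEL 2+3 alone (adjusted p = 0.121). The dimmer set of Zfpm1 was the other called probe set, at 5.54 and 5.66 in VSEL against 5.15, 4.85 and 4.90 in HSC (difference 0.64, adjusted p = 0.0259). That set lay at or below background on every library and no fold is given for it, since the floor of the VSEL arrays was higher.

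Gfi1b, the repressor, read 12.04 in VSEL 1 and 7.17 in VSEL 2+3, then 6.72, 7.21 and 7.45 in HSC 1 to 3, and 6.42, 6.40 and 6.25 in ESC 1 to 3. VSEL 2+3 lay inside the HSC range, so VSEL 1 alone stood apart from HSC. The difference was 2.48 in log2 over both VSEL libraries (SE 1.27, adjusted p = 0.223), 4.92 with VSEL 1 alone (adjusted p = 0.00119) and 0.04 with VSEL 2+3 alone (adjusted p = 0.934).

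Nfe2 had 9.91 in VSEL 1 and 10.74 in VSEL 2+3, 8.77, 8.20 and 6.69 in HSC 1 to 3, and 4.88, 4.14 and 4.66 in ESC 1 to 3. The VSEL libraries were close to each other and above HSC, and ESC lay under background throughout. The log2 difference of 2.44 between VSEL and HSC (SE 0.63) narrowly missed the threshold (adjusted p = 0.0511), and 8 of 23 alternatives called it.

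Epor, which encodes the receptor that red cell precursors need for survival, was at 10.94 in VSEL 1 and 9.58 in VSEL 2+3. The HSC libraries gave 7.55, 8.56 and 7.97 for Epor and the ESC libraries 6.06, 7.66 and 7.46. VSEL exceeded every other library, while HSC and ESC overlapped. Epor was 2.23 above HSC in VSEL on the log2 scale (SE 0.63, adjusted p = 0.0639), which did not pass.

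**Figure D2:**
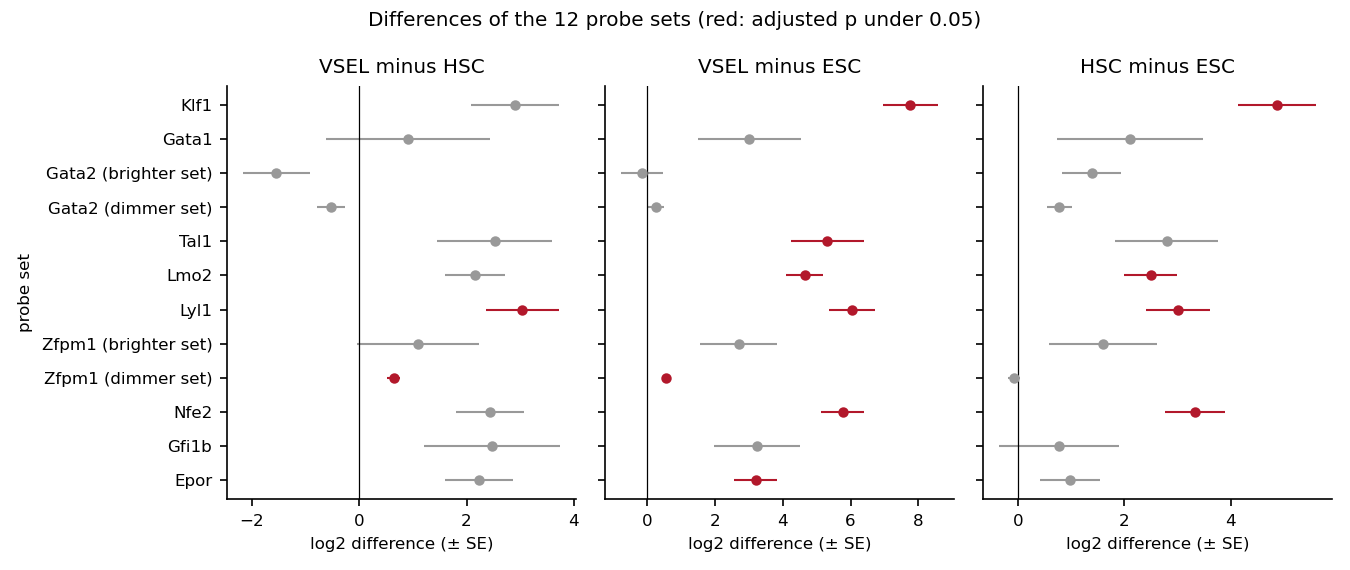
The horizontal axis gives the log2 difference of each regulator probe set (points) with its standard error (bars), in 1 panel each for VSEL minus HSC, VSEL minus ESC and HSC minus ESC, and red marks an adjusted p under 0.05. Lyl1 and the dimmer Zfpm1 set are red in VSEL minus HSC, and Klf1 has the highest difference from ESC in both other panels.

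Against ESC, 6 of the 10 genes were called higher in VSEL (Klf1, Lyl1, Nfe2, Tal1, Lmo2 and Epor), where 7.59% of all genes were called higher and 10.3% lower. All values of VSEL lay above those of ESC for 8 genes, against 32.9% of all genes. The median log2 difference was 3.94, beside 0.11 over all genes. Klf1 differed by 7.77 (SE 0.82, adjusted p = 0.0039) and was at least 161-fold higher in VSEL, with ESC held at its background level. On the same terms Nfe2 was at least 25.9-fold higher (log2 difference 5.77, SE 0.63, adjusted p = 0.00428) and Tal1 at least 24.1-fold (5.31, SE 1.08, adjusted p = 0.0277). Lyl1 was higher by 6.04 (SE 0.68, adjusted p = 0.00474), Lmo2 by 4.64 (SE 0.56, adjusted p = 0.00596) and Epor by 3.20 (SE 0.63, adjusted p = 0.0261). The calls of Klf1, Lyl1, Nfe2 and Lmo2 held in every alternative. Tal1 lost its call without either VSEL library and without any 1 ESC library (adjusted p up to 0.0927), and Epor without VSEL 1, ESC 2 or ESC 3 (up to 0.0851) and in 3 other alternatives. Gata1 (3.02, adjusted p = 0.222), Zfpm1 (2.70, adjusted p = 0.158) and Gfi1b (3.25, adjusted p = 0.135) passed only with VSEL 1 as the lone VSEL library, with adjusted p-values of 0.0284, 0.00309 and 0.00117. Gata2 differed by -0.16 (adjusted p = 0.881) on its brighter set, and the sign changed among the alternatives (-0.50 to 0.31). The dimmer Zfpm1 set was called as well (0.55, adjusted p = 0.0374), at or below background.

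HSC against ESC shares its libraries with the other comparisons, so its values are set beside them and not counted as separate support. The 4 genes called higher in HSC were Klf1, Nfe2, Lyl1 and Lmo2, where 6.38% of all genes were called higher, and 8 of 10 genes did not overlap, against 16.6%. Klf1 was at least 21.6-fold higher in HSC than in ESC (log2 difference 4.87, SE 0.73, adjusted p = 0.00829), a call that held in all 23 alternatives. Nfe2 was at least 4.78-fold higher (3.33, SE 0.56, adjusted p = 0.0132), Lyl1 differed by 3.00 (SE 0.61, adjusted p = 0.0267) and Lmo2 by 2.49 (SE 0.50, adjusted p = 0.0257). Without ESC 2 the adjusted p of Nfe2 was 0.0531. Lyl1 lost its call without HSC 1, HSC 2, ESC 1 or ESC 2 (up to 0.0954), and Lmo2 without HSC 1, HSC 2 or any 1 ESC library (up to 0.089). Tal1 (2.79, adjusted p = 0.155) and Gata2 (1.39, adjusted p = 0.225) were not called, and both passed without HSC 1, at 3.88 (adjusted p = 0.0108) and 1.99 (adjusted p = 0.0265). Zfpm1 differed by 1.60 (adjusted p = 0.468) and passed in the fits without either VSEL library, at an adjusted p down to 0.0149. By mean of the brighter sets, VSEL came first, HSC next and ESC last for 9 genes, and Gata2 ran HSC, ESC, VSEL. The dimmer Gata2 set ran HSC (6.03), VSEL (5.51), ESC (5.26), and VSEL lay at or below background on both Gata2 sets. Between neighbours in the order of the brighter sets, Lyl1 was called in both steps, and Gata1, Gata2, Tal1, Zfpm1, Gfi1b and Epor in neither.

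The 2 VSEL libraries held different levels of most regulators. VSEL 1 exceeded VSEL 2+3 by over 1 in log2 for 6 of the 10 genes (Gata1, Gfi1b, Zfpm1, Klf1, Lmo2 and Epor), where 12.0% of all genes did, and lay below it by over 1 for Tal1 and Lyl1, where 11.4% did. The difference was 5.23 for Gata1 (at least 32.1-fold, with VSEL 2+3 held at its background level), 4.87 (29.3-fold) for Gfi1b and 4.31 (19.8-fold) for Zfpm1. Differences above 4 occurred in 2.59% of all genes. Klf1 followed at 2.67, Lmo2 at 1.69 and Epor at 1.35, against -1.58 for Lyl1, -1.49 for Tal1 and -0.83 for Nfe2. Over the 8 libraries Gata1 and Gfi1b correlated at r = 0.888, Gata1 and Zfpm1 at 0.878 and Gfi1b and Zfpm1 at 0.930, while Lyl1 and Nfe2 correlated at 0.986 and Klf1 and Lmo2 at 0.971. These correlations are descriptions over 8 points that share 3 cell types. With 1 library on each side the split of VSEL has no replicate check. The summed red cell markers were higher in VSEL 1 (14.85, against 13.73 in VSEL 2+3), and the summed pan-leukocyte markers lower (13.24 in VSEL 1 and 15.62 in VSEL 2+3), with 2 and 6 of 8 of these above background. Their part in the split was not tested.

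**Figure D3:**
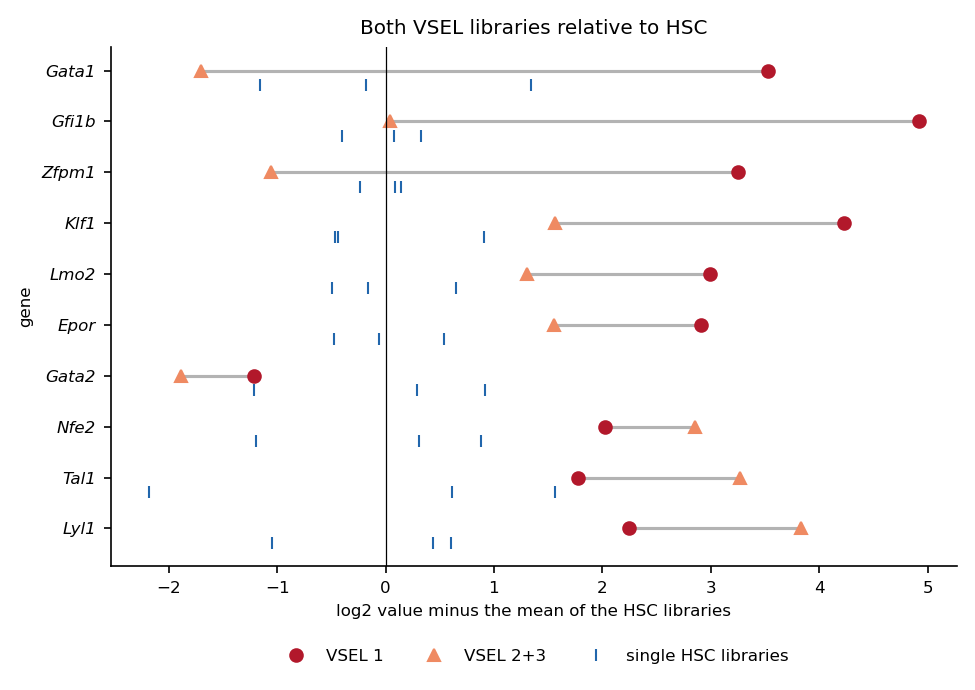
The horizontal axis gives each library's log2 value minus the mean of the HSC libraries, with circles for VSEL 1, triangles for VSEL 2+3 and blue ticks for single HSC libraries. Gata1, Gfi1b and Zfpm1 reach 3.25 to 4.92 in VSEL 1 and -1.70 to 0.04 in VSEL 2+3, whereas Lyl1, Tal1 and Nfe2 are higher in VSEL 2+3.

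The HSC libraries also differed among themselves. Their SD ran from 0.20 for Zfpm1 to 1.95 for Tal1, against 0.09 to 0.87 in ESC. HSC 1 had the lowest value of Gata1, Gata2, Tal1, Gfi1b and Epor and the highest of Lmo2, Lyl1 and Nfe2. HSC 3 had the highest of Gata1, Tal1 and Gfi1b and the lowest of Klf1, Lmo2, Lyl1, Zfpm1 and Nfe2. Thus Lyl1 and Nfe2 were highest where Gata1 and Tal1 were lowest among these 3 libraries, and with 3 libraries that order is a description only. The log2 of the summed red cell markers was 8.95, 9.77 and 10.72 in HSC 1 to 3, and its part in this order was not tested.

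Known red cell targets of the regulators were counted next. Of 27 measured targets, 17 were higher in VSEL than in HSC and none was lower, where 9.29% of all genes were higher. Their median log2 difference was 2.07, beside 0.22 over all genes. Ermap, a membrane protein of red cells, stood at 13.22 and 12.00 in VSEL and at 8.53, 8.83 and 9.56 in HSC (difference 3.64, SE 0.46, adjusted p = 0.00633). Alas2, which starts haem synthesis in red cells, differed by 4.51 (SE 0.62, adjusted p = 0.00848). Uros, another enzyme of that pathway, differed by 1.99 (SE 0.26, adjusted p = 0.00733) and E2f2, a cell cycle factor of red cell precursors, by 2.49 (SE 0.36, adjusted p = 0.0102). These 4 calls held when any 1 library was left out. Alas2 and Slc4a1 stand both among these targets and among the red cell markers, whose summed level was also highest in VSEL, and the part of red cell precursors in the count was not tested. The count of 17 was 11 without VSEL 1, 10 without HSC 1 and 20 without VSEL 2+3. Against ESC 19 targets were higher in VSEL and none lower (7.59% of all genes were higher), with a median of 3.63. HSC against ESC gave 6 higher and 1 lower, where 6.38% of all genes were higher and 8.89% lower. VSEL 1 exceeded VSEL 2+3 by over 1 for 16 of the 27, where 12.0% of all genes did. It lay below by over 1 for 1, where 11.4% did. Of 5 measured globin genes only Hbb-b2, an adult beta globin, was called, at 10.41 and 8.87 in VSEL and 6.29, 6.95 and 7.02 in HSC (difference 2.89, SE 0.51, adjusted p = 0.0187). Its probe set can match several transcripts, so it may read related beta globins, and without HSC 1 its adjusted p was 0.0525.

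Among 28 partners and cofactors of the regulators, 2 were higher in VSEL than in HSC (Rcor1 and Hdac2, both of corepressor complexes) and 4 were lower, where 9.29% of all genes were higher and 9.04% lower. Gfi1, the sister gene of Gfi1b with roles in stem cells and neutrophils, read 2.95 and 3.35 in VSEL and 9.05, 9.18 and 9.22 in HSC (difference -6.00, SE 0.15, adjusted p = 1.02e-05). Fli1, an Ets factor that acts beside Gata2 and Tal1 in stem cells and drives megakaryocyte genes, read 2.89 and 2.84 in VSEL and 7.67, 8.42 and 8.16 in HSC (difference -5.22, SE 0.22, adjusted p = 8.64e-05). The VSEL values of Gfi1 and Fli1 lay under background, so these differences are fitted values, and the bounds are at least 7.13-fold lower in VSEL for Gfi1 and at least 3.40-fold lower for Fli1. The second probe set of Fli1 had means of 4.70 in VSEL and 4.65 in HSC, both under background. Mafk, a small MAF partner of NFE2, differed by -1.91 (SE 0.24, adjusted p = 0.00667) while Nfe2 itself was at 2.44, and Lmo4, a relative of Lmo2, by -2.73 (SE 0.38, adjusted p = 0.00859). Lmo4 read 6.49 in VSEL 1, just above its background of 6.37, and 5.80 in VSEL 2+3, under background, so its difference is a fitted value. These 4 lower calls held with any 1 library left out, and those of Rcor1 and Hdac2 did not (adjusted p up to 0.0762 and 0.11). Against ESC, of the 28 only Rcor1 was called higher in VSEL and only Cbfa2t2 lower, where 7.59% of all genes were called higher and 10.3% lower. The Rcor1 call against ESC held in all 8 fits that left out 1 library, and the Cbfa2t2 call in 3 of 8.

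Paralogs of the regulators were called in both directions. Gata6 and Gata4, GATA factors of endoderm and heart, were higher in VSEL than in HSC, and Gata3, Gfi1, Klf2 and Klf6 were lower, out of 22, where 9.29% of all genes were higher and 9.04% lower. Gata6 read 8.08 and 7.79 in VSEL, 5.26, 5.25 and 5.31 in HSC and 10.27, 10.00 and 10.41 in ESC, with differences of 2.66 from HSC (SE 0.16, adjusted p = 0.000366; at least 4.81-fold, since HSC lay under background) and -2.29 from ESC (SE 0.16, adjusted p = 0.00113). Gata6 thus lay between HSC and ESC in VSEL, where Gata1 was high in 1 library and Gata2 was at background. Gata3, a T cell factor, had 4.05 and 4.04 in VSEL and 10.03, 9.33 and 8.38 in HSC (difference -5.20, SE 0.46, adjusted p = 0.00154). The T and NK cell markers were above background in every HSC library, and the part of such cells in the Gata3 values was not tested. Klf6 differed by -5.19 (SE 0.68, adjusted p = 0.00738), and its 5 probe sets were all called lower. Gata4 read 5.95 in VSEL 1, under its background of 6.37, and 6.75 in VSEL 2+3, and every HSC library lay under background. No fold is given for Gata4, since the floor of the VSEL arrays was higher. The Gata4 call was lost in 7 of 8 fits that left out 1 library, and Klf2 lost its call without HSC 1 or HSC 3.

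Genes of erythropoietin signalling were called in both directions too. Of 14 measured, Gab1 was higher in VSEL than in HSC and Socs3, Grb2, Irs2 and Csf2rb were lower, where 9.29% of all genes were higher and 9.04% lower. Csf2rb, the common beta chain of the IL-3 and GM-CSF receptors, read 4.10 and 4.50 in VSEL and 11.49, 10.58 and 9.86 in HSC (difference -6.34, SE 0.46, adjusted p = 0.000744). Socs3, a feedback inhibitor of cytokine receptors, read 8.29 and 8.31 in VSEL and 12.09, 12.92 and 11.90 in HSC (difference -4.00, SE 0.30, adjusted p = 0.000866). Gab1, an adaptor that Epor signalling can use, differed by 2.86 (SE 0.41, adjusted p = 0.00978) and Grb2 by -1.99 (SE 0.29, adjusted p = 0.0103). Irs2 was called with all libraries and lost its call in 6 of 8 fits that left out 1 (adjusted p up to 0.0947). Jak2, the kinase bound to the receptor, had 11.39 and 9.76 in VSEL, 9.82, 8.39 and 9.95 in HSC and 4.02, 4.45 and 4.24 in ESC. Jak2 differed by 1.19 between VSEL and HSC (SE 0.63, adjusted p = 0.234) and was at least 30.8-fold higher in VSEL than in ESC, where it lay under background (fitted difference 6.34, SE 0.63, adjusted p = 0.00314).

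Of 14 megakaryocyte targets, 2 were higher in VSEL than in HSC and 3 were lower, beside 9.29% and 9.04% of all genes. Itgb3, an integrin chain of platelets, averaged 4.55 in VSEL and 8.39 in HSC (difference -3.83, SE 0.50, adjusted p = 0.0069), and its second, dimmer probe set differed by 0.25 (adjusted p = 0.648). Thbs1 (-2.75, SE 0.51, adjusted p = 0.0223) and Gp5 (-1.78, SE 0.39, adjusted p = 0.0347) were lower too. The 2 higher genes, Gp1bb (0.66, adjusted p = 0.0269) and Tubb1 (0.78, adjusted p = 0.0378), read 5.89 to 6.32 in VSEL, near the background of those arrays. Only Itgb3 kept its call with any 1 library left out. In the list of stem cell, mast cell and basophil genes, 1 of 15 was higher in VSEL than in HSC and 4 were lower, beside the same shares of all genes. Gzmb, a granule protease of cytotoxic cells and some mast cells, read 5.74 and 5.73 in VSEL and 8.99, 9.35 and 9.16 in HSC (difference -3.43, SE 0.14, adjusted p = 8.19e-05). Cpa3, a mast cell and basophil protease and known GATA2 target, read 3.76 and 4.29 in VSEL and 6.15, 7.28 and 7.23 in HSC (difference -2.87, SE 0.37, adjusted p = 0.00658). Mcpt8, a basophil protease, differed by -2.95 (SE 0.45, adjusted p = 0.0123). VSEL had 1 of 5 mast cell and basophil markers above background and HSC had 3 to 4; the part of such cells in the HSC values was not tested. Hhex (2.05, adjusted p = 0.0413) and Slamf1 were called with all libraries and in 1 of 8 fits that left out 1. In VSEL the values of Gata3, Csf2rb, Itgb3, Thbs1, Gp5, Gzmb, Cpa3 and Mcpt8 lay under background, so their differences from HSC are fitted values too. With VSEL held at its background level, Csf2rb was at least 20.1-fold lower, Gata3 at least 7.62-fold, Gzmb at least 7.21-fold and Itgb3 at least 4.20-fold, and the bounds of the other 4 ran from 1.49-fold to 3.93-fold.

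**Figure D4:**
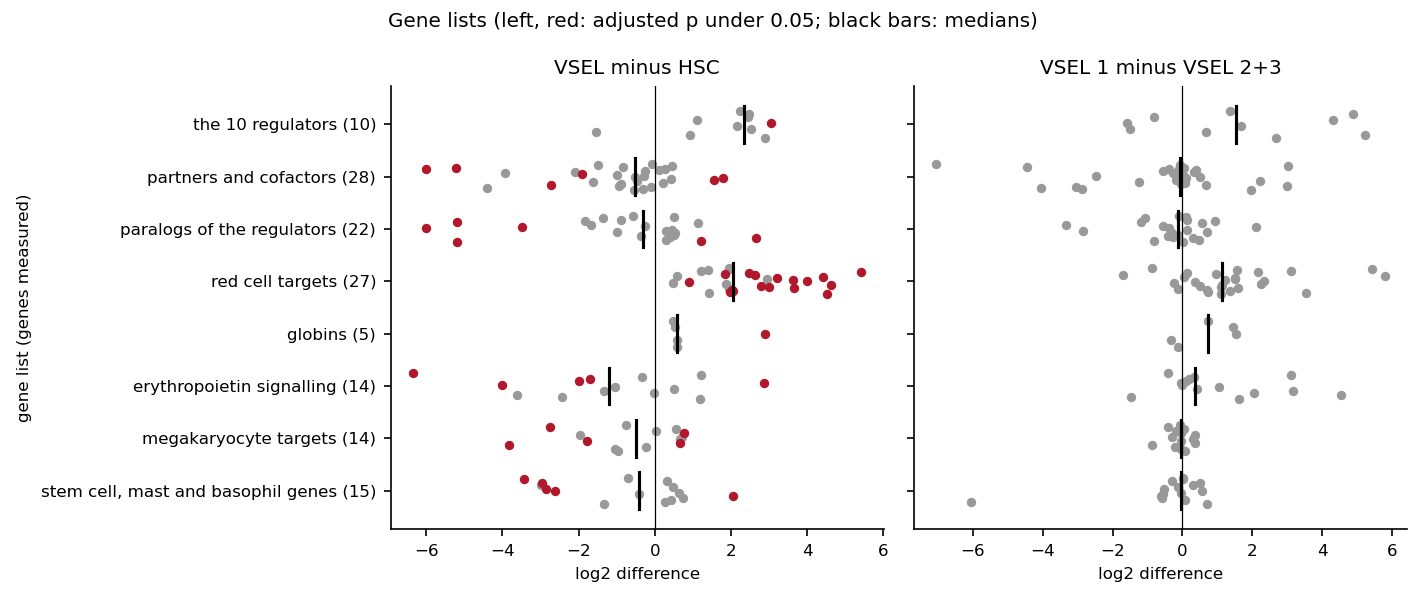
Each row is a list of related genes with the number measured in brackets, and points give each gene's log2 difference, in VSEL minus HSC on the left (red where the adjusted p is under 0.05) and in VSEL 1 minus VSEL 2+3 on the right, with black bars at the medians. On the left 17 of 27 red cell targets are red on the higher side, and on the right 16 of them lie above 1.

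Likeness to 2 of the regulators was measured over the 8 libraries among genes with a range of at least 2. Fam53b (r = 0.994), Xist (0.982), Ctse (0.982), Tnfaip8 (0.981) and Hbb-b2 (0.977) were nearest to Klf1. Rap2b (0.985), Atp10a (0.961), Cited4 (0.960), Rassf2 (0.951) and Tmem40 (0.938) were nearest to Gata2. Gata2 correlated with the other regulators at -0.02 to 0.36. All these values are descriptions, since the libraries share 3 cell types and 9397 genes were searched.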

How the data were processed

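Expression was read on 9 Affymetrix arrays, 3 per cell type, from libraries of 20 cells. The authors deposited 1 log2 value per probe set and array, made with Partek 6.5 and RMA per the submitters' processing notes, and their settings were not given. RMA normalizes by quantiles, yet upper quartiles were lower in VSEL (6.63 to 6.69) than elsewhere (7.11 to 7.18). The values were used as deposited. Of 45101 probe sets, 64 controls were left out, 34958 had 1 gene, 932 several and 9211 none listed. For 34741 of the 34945 tested probe sets with 1 gene, the symbol was taken from RefSeq, whether or not it differed. A gene was described by its probe set with the highest mean.

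All 8 libraries entered 1 limma fit (version 3.58.1, R 4.3.3; lmFit, eBayes; two-sided tests; 5 residual degrees of freedom), with Benjamini-Hochberg adjustment over 45037 probe sets. Simulated data for VSEL against HSC had 200 of 45037 probe sets changed, 50 per size. The fit recovered 16% of log2 changes of 1, 62% of 2, 80% of 4 and 94% of 6, with 11 false calls. In the data 6389 probe sets were called, so fewer were changed in the simulation and its rates may not carry over. An "at least" fold sets the brighter group's mean against the dimmer group held at its background level. From each gene list, up to 4 genes with the smallest adjusted p in VSEL against HSC were named; Rcor1, Hdac2, Gata4, Klf2, Irs2, Jak2, Cbfa2t2, Tubb1, Slamf1 and Hbb-b2 were named after their values were seen or to complete a count. The regulators and the lists were chosen with earlier results of these data known. Same-numbered HSC and ESC libraries did not deviate together (r = -0.011 to -0.013). The number of arrays limits the precision. Other libraries, scalings, filters and fits were tried as alternatives.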

Additional observations from a re-analysis of the deposited data

How the results depend on the processing

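In VSEL against HSC 6389 probe sets were called with all libraries, 3524 to 5631 with 1 library left out (4734 without VSEL 1), 9489 with 9 separate arrays, 2205 with the replicate block, 3932 after cyclic loess, 3995 above background, 3170 with 1 probe set per gene, 2435 with only these 2 groups and 2702 with array weights. Of the 12 regulator probe sets 2 were called, against 0 to 4 with 1 library left out, 5 with 9 arrays, 0 with the replicate block, 4 after quantile normalization, 6 after centring on ribosomal proteins, 0 with 2 groups and 1 with array weights. In VSEL against ESC 6334 probe sets were called, 2734 to 5973 with 1 library left out, 9263 with 9 arrays, 2210 with the replicate block, 3741 after cyclic loess, 4170 above background, 3088 with 1 probe set per gene and 3332 with array weights. There 7 regulator probe sets were called, 4 to 8 with 1 library left out and 5 with the replicate block. In HSC against ESC 4788 were called, 3618 to 5654 with 1 library left out, 2968 without probe sets that can match several transcripts, 3100 with 1 per gene and 3801 with the replicate block; 4 regulator probe sets were called, 1 to 5 with 1 library left out and 3 with the replicate block. The causes of these changes were not tested. The main fit did not pair libraries by replicate number, and the labels do not say whether same-numbered libraries were handled together. Calls higher made up 56.4% in VSEL against HSC, 63.7% after quantile normalization and 76.1% after ribosomal centring, and 50.7%, 60.8% and 72.8% in VSEL against ESC. The median difference over all probe sets in VSEL against HSC moved with scaling, from 0.21 as deposited to 0.02, 0.10 and 0.67 after cyclic loess, quantile normalization and ribosomal centring. Without VSEL 1 the differences of Gata1 and Zfpm1 from HSC turned negative and were not called, as they were not with all libraries. Red cell targets were counted again after the data were seen, and 10 to 20 of 27 were higher in VSEL than in HSC with 1 library left out. Dim probe sets near the floor have no detection call.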

Other observations

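Outside the regulators, the 2 VSEL libraries also held different blood genes, which were picked here after their values were seen and have no replicate check. Aqp1, the water channel of red cells, read 11.02 in VSEL 1 and 5.23 in VSEL 2+3, against 6.79, 7.16 and 8.63 in HSC 1 to 3. Tspo2, a red cell relative of the mitochondrial translocator protein, read 11.24 in VSEL 1 and 5.83 in VSEL 2+3, against 7.87, 5.66 and 6.24 in HSC 1 to 3. Cd34, a surface marker of progenitors, read 4.53 in VSEL 1 and 10.58 in VSEL 2+3, against 8.73, 7.09 and 6.04 in HSC 1 to 3. For Aqp1 and Cd34 the HSC libraries lay between the VSEL libraries. The lower VSEL value of Aqp1, Tspo2 and Cd34 lay under background, which was 6.37 in VSEL 1 and 6.26 in VSEL 2+3.

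In the 250 bases before the start site, the CACC box letters CCNCNCCC lay in 8 of the 10 regulator promoters and in 45.9% of all RefSeq promoters, searched on both strands with overlapping matches allowed. The E-box CAGATG lay in the promoters of Klf1 and Epor and in 14.4% of all promoters.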
